A study of Mus musculus with 2 samples.

Results

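The 10 members of the insulin-like growth factor (IGF) group were the ligand genes Igf1 and Igf2, the receptor genes Igf1r and Igf2r, and the genes of the binding proteins Igfbp2, Igfbp3, Igfbp4, Igfbp5, Igfbp6 and Igfbp7. They were chosen by symbol from the 32246 symbols of the matrices, and all 10 were found. The group was put together with earlier results of these cells known, in particular a low Igfbp3 level in the Paqr4 transgenic library, so its levels are a description and carry no test. IGF1 and IGF2 are secreted growth factors that signal through the receptor tyrosine kinase IGF1R, whereas IGF2R mainly takes up IGF2 and carries it to lysosomes. IGFBP2 to IGFBP6 bind IGFs with high affinity outside the cell and hold them away from the receptor or release them near it when proteases cut the binding protein. IGFBP7 is a related secreted protein that binds IGFs weakly. In fat, IGF1 acts on the progenitors that give rise to adipocytes, and stromal and endothelial cells are known sources of binding proteins.

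The cells came from a single Paqr4 transgenic library and a single WT library of the CD45-negative stromal vascular fraction of mouse subcutaneous white fat, sorted by flow cytometry and sequenced with a droplet 3′ method. PAQR4 is a membrane protein of the progestin and adipoQ receptor family. The labels give neither the promoter that drives the transgene nor the strain, age or sex, and the series text has cells of 3 mice pooled without saying whether that is 3 per genotype. With 1 library per genotype no difference between genotypes has a replicate check, and every interval below is a 95% interval that covers counting error only and is too narrow where few cells hold many counts.

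The Paqr4 transgenic library gave 1521 cells and the WT library 1328 cells after filtering, with a median of 18711 and 21612.5 unique molecular identifiers (UMIs) per cell. They shared no cell barcode. Paqr4 itself stood at 9.50 UMIs per 1000000 UMIs of the class (UPM; interval 8.36 to 10.8) in transgenic progenitors and at 7.88 UPM (6.83 to 9.05) in WT progenitors, intervals that overlap, and the added eGFP feature had 4 UMIs in all transgenic barcodes and 0 in WT. Xist, the RNA of the inactive X chromosome, stood at 0.152 UPM in transgenic and 959 UPM in WT progenitors, and 94.0% of transgenic against 2.04% of WT progenitors had a UMI of a Y-linked gene. Sex and genotype therefore cannot be told apart in any comparison below. Against the CD45-negative sort, 8 transgenic and 2 WT cells formed a B or plasma cell class. A red-cell class held 31 transgenic and 34 WT cells. A further 5 transgenic and 25 WT cells formed a class led by Clps and other pancreatic enzyme genes and were left unnamed. Mesothelial cells numbered 10 in transgenic and 11 in WT, and epithelial cells, led by Pkhd1 and Spp1, 6 in transgenic and 9 in WT. Whether the cells of these classes come from the named fat depot was not tested.

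Progenitors, the cells with Pdgfra, Dcn and collagen genes, numbered 1359 in the transgenic and 1126 in the WT library and fell into 6 clusters. From marker lists 3 were named: Dpp4-like (206 transgenic and 263 WT cells), Icam1-like (246 and 162 cells) and F3-like (256 and 132 cells). The lists included Dpp4, Pi16 and Cd55 for Dpp4-like, Icam1, Pparg and Lpl for Icam1-like, and F3, Clec11a and Fmo2 for F3-like. Leading genes included Pi16, Cd55 and Sema3c in Dpp4-like, Cxcl14, Bmper and G0s2 in Icam1-like, and C7, Cilp and Prlr in F3-like cells. The other 3 are called by their leading genes. They are a Fos-led cluster (330 and 258 cells; Egr1, Jun and other immediate-early genes), an Adamts4-led cluster (210 and 269 cells; Il6, Mt1, Cxcl1) and a Piezo2-led cluster (111 and 42 cells; Itgbl1, Tgfbi). Blood endothelial cells numbered 79 in the transgenic and 95 in the WT library and had all 10 markers of their list. Since Igfbp2, Igfbp3 and Igfbp5 were among the 2000 variable genes used for clustering, the classes were also built without the 10 members, and values from those classes are given where they matter.

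The promoters of 3 binding protein genes are shown because their genes differ most in where they were detected: Igfbp3 in endothelial cells and few progenitors, Igfbp5 in Dpp4-like cells, and Igfbp4 in nearly every progenitor. Each window runs from 250 bases before to 50 bases after the RefSeq start in GRCm38.p6. It is written 5′ to 3′ on the gene's strand, with the start base and any of 5 searched motifs in capitals. Igfbp3 lies at chr11:7213874-7214173 on the minus strand, Igfbp5 at chr1:72874816-72875115 on the minus strand, and Igfbp4 at chr11:99040994-99041293 on the plus strand.
Igfbp3: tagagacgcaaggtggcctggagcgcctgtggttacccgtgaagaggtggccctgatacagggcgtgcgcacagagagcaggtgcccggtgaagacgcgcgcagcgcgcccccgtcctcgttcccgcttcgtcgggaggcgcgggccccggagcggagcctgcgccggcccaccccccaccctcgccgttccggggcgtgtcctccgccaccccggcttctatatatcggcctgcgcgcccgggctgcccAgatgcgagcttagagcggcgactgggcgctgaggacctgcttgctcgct
Igfbp5: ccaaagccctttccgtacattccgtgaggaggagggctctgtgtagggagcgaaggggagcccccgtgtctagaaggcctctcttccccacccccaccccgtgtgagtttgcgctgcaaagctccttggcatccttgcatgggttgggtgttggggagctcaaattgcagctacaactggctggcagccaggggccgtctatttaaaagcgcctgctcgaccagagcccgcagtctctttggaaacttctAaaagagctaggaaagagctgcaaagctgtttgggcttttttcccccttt
Igfbp4: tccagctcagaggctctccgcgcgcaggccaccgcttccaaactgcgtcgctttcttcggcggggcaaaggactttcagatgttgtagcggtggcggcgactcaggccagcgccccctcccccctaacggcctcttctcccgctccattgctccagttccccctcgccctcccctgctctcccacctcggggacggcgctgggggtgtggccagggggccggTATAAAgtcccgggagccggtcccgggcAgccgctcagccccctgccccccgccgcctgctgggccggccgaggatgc

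All 10 members matched a RefSeq promoter, some with several starts, which gave 14 windows. Both strands were searched for 5 motifs. The TATA box, spelled TATAAA, occurred in 13.6% of 32851 promoter windows of the same length and in 2 of the 14. The CCAAT box occurred in 37.4% of all windows and in 3 of the 14. The GC box, spelled GGGCGG, occurred in 35.7% of all windows and in 6 of the 14. The AP-1 site, spelled TGACTCA, occurred in 5.20% of all windows and in 1 of the 14. The E box, spelled CACGTG, occurred in 7.15% of all windows and in 2 of the 14. The Igfbp3 and Igfbp5 windows held none of these letters. Igfbp4 held TATAAA at position -28, and GC content was 71.7% in the Igfbp3, 56.3% in the Igfbp5 and 71.3% in the Igfbp4 window. On chromosome 1, Igfbp2 (72824503 to 72852474, plus strand) and Igfbp5 (72857932 to 72874884, minus strand) lie 5457 bases apart in GRCm38. They nevertheless differed in detection, since Igfbp2 had 2 UMIs in transgenic and 1 in WT progenitors.

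In all progenitors, 8 of the 10 members reached a mean of 10 UPM over both libraries, and Igf2 and Igfbp2 did not. Among the 8, Igfbp3 and Igfbp5 were 1.5-fold or more lower in the transgenic library, where 1.51% of 8542 genes at that floor were, and no member was 1.5-fold or more higher, where 2.53% were. The median log2 ratio of transgenic over WT was -0.09 over the 8 members and 0.09 over all 8542 genes. Igfbp3 stood at 7.37 UPM (194 UMIs) in transgenic and 61.0 UPM (1564 UMIs) in WT progenitors, a log2 ratio of -3.05 (-3.27 to -2.83). Igfbp5 stood at 228 UPM in transgenic and 352 UPM in WT progenitors (log2 -0.63, -0.67 to -0.58). With equal weight for the 5 clusters that had 50 or more cells in each library, which leaves out the Piezo2-led cells, these became -4.15 for Igfbp3 and -0.31 for Igfbp5, and Igf1 passed 1.5-fold at -0.65. With equal weight for all 6 clusters they became -2.99 for Igfbp3, -0.33 for Igfbp5 and -0.35 for Igf1. Igfbp5 was under 1.5-fold in both.

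**Figure D1:**
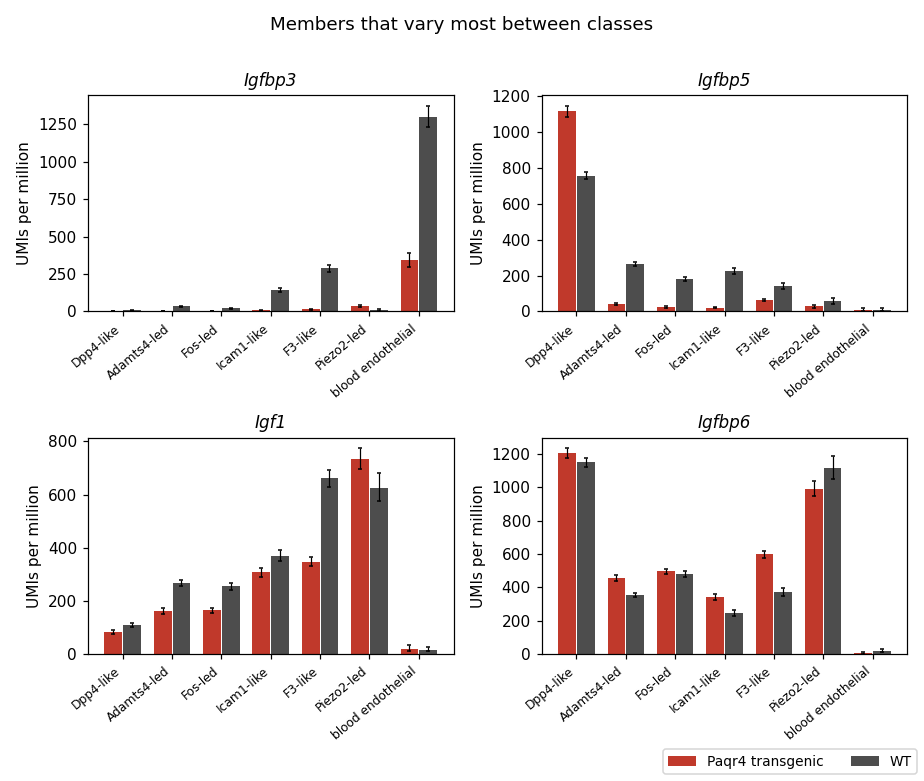
UMIs per 1000000 UMIs (UPM) for Igfbp3, Igfbp5, Igf1 and Igfbp6 in 6 progenitor clusters and blood endothelial cells, Paqr4 transgenic (red, left) and WT (grey, right), 1 library each; lines are 95% Poisson intervals. Igfbp3 was highest in endothelial cells, Igfbp5 in Dpp4-like cells, Igf1 was highest in Piezo2-led and WT F3-like cells, and Igfbp6 in Dpp4-like and Piezo2-led cells.

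Igf1, the ligand, was a progenitor transcript, lowest in Dpp4-like and highest in Piezo2-led and F3-like cells. In transgenic cells it stood at 81.1 UPM in Dpp4-like, 161 in Adamts4-led, 163 in Fos-led, 307 in Icam1-like, 347 in F3-like and 735 UPM in Piezo2-led cells. In WT cells it stood at 107 UPM in Dpp4-like, 254 in Fos-led, 267 in Adamts4-led, 370 in Icam1-like, 626 in Piezo2-led and 661 UPM in F3-like cells. The Adamts4-led and Fos-led neighbours had overlapping counting intervals in both libraries, as had Piezo2-led and F3-like cells in WT. Endothelial cells had 19.9 UPM (12 UMIs) in transgenic and 15.7 UPM (15 UMIs) in WT, and Schwann and lymphatic endothelial cells had 0 UMIs in either library. Free RNA held Igf1 at 130 UPM (114 to 147) in transgenic and 99.0 UPM (88.6 to 110) in WT. The transgenic Dpp4-like level and the endothelial levels of both libraries lay below that of free RNA, and the WT Dpp4-like level lay near it. The largest Igf1 ratio lay in F3-like cells at -0.93 (-1.03 to -0.83), followed by Adamts4-led cells at -0.73 and Fos-led cells at -0.64, all lower in transgenic. In F3-like cells it was -0.43 under the clustering at resolution 0.8 without the members, where the levels were 316 UPM in transgenic and 424 UPM in WT, under 1.5-fold, so that value moved with how the state was drawn. Igf2 had 7 UMIs in transgenic and 37 in WT progenitors, or 0.266 UPM (0.107 to 0.548) and 1.44 UPM (1.02 to 1.99).

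The receptors varied little. Igf1r stood at 356 UPM (349 to 363) in transgenic and 324 UPM (317 to 331) in WT progenitors, a log2 ratio of 0.14, and F3-like cells had the most of the progenitor clusters, with 433 UPM in transgenic and 427 UPM in WT. Outside the progenitors, Schwann cells had 1464 UPM (59 UMIs in 3 cells) in transgenic and 1056 UPM (80 UMIs in 6 cells) in WT, and epithelial cells 898 UPM in transgenic and 900 UPM in WT. Igf2r stood at 160 UPM in transgenic and 155 UPM in WT progenitors, with its lowest progenitor level in Dpp4-like cells at 125 UPM in transgenic and 111 UPM in WT. Airn, the antisense RNA that silences the paternal Igf2r copy in cis, overlaps Igf2r by 28354 bases on chromosome 17. It stood at 1240 UPM in transgenic and 1179 UPM in WT progenitors, and since the strand setting of the counting is not given, reads of the pair cannot be told apart where they overlap.

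Igfbp3, the main carrier of IGFs in blood, had its highest level per UMI of the larger classes in endothelial cells in both libraries. Blood endothelial cells held 48.7% of all transgenic Igfbp3 UMIs with 2.14% of the UMIs of all genes, and 43.9% of the WT Igfbp3 UMIs with 3.36% of all UMIs. Progenitors held 45.6% of the transgenic and 55.2% of the WT Igfbp3 UMIs, with 93.2% and 90.2% of all UMIs. The Igfbp3 level in blood endothelial cells was 343 UPM (298 to 393) in transgenic and 1301 UPM (1229 to 1375) in WT, a log2 ratio of -1.92 (-2.14 to -1.71). After thinning every cell to 5000 UMIs, which left out 16 transgenic and 18 WT cells of fewer UMIs, 28.6% of transgenic (17.9 to 41.3) and 64.9% of WT endothelial cells (53.2 to 75.5) had an Igfbp3 UMI. In the transgenic library 5 cells held 68.1% of the endothelial Igfbp3 UMIs, and without the 5 highest cells of each library the levels were 118 UPM in transgenic and 1007 UPM in WT cells.

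A finer clustering (resolution 0.8, the same with or without the members among its genes) split the endothelial cells into 2 clusters of very different size in the libraries. The Cd36-, Fabp4- and Cldn5-led cluster, with genes known from capillaries, held 66 transgenic and 37 WT cells, and its Igfbp3 level was 117 UPM in transgenic and 108 UPM in WT cells. The Flt1-, Emcn- and Plvap-led cluster held 13 transgenic and 58 WT cells, at 1481 UPM in transgenic and 2182 UPM in WT cells. Igfbp3 was thus over 10 times higher in the second cluster in both libraries, and within each cluster the libraries differed by less than in the endothelial class as a whole.

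Among progenitor clusters Igfbp3 differed in opposite directions. In F3-like cells it stood at 13.6 UPM (10.4 to 17.4) in transgenic and 288 UPM (267 to 309.5) in WT, a log2 ratio of -4.41. In Icam1-like cells it stood at 6.97 UPM in transgenic and 141 UPM in WT (log2 -4.34). Without the 5 highest cells of each library these became 3.55 UPM in transgenic and 110.05 UPM in WT F3-like cells, and 1.22 UPM in transgenic and 79.6 UPM in WT Icam1-like cells (log2 -6.02). With the members left out of the clustering, a small Icam1-like cluster led by Tenm4 and Cxcl14, of 10 transgenic and 34 WT cells, had Igfbp3 at 154 UPM (96.7 to 234) in transgenic and 567 UPM in WT, above the F3-like levels of 10.6 UPM in transgenic and 204 UPM in WT under that clustering. In Adamts4-led cells the values were 3.73 UPM in transgenic and 34.9 UPM in WT, and in Fos-led cells 3.37 UPM in transgenic and 20.2 UPM in WT. Piezo2-led cells went the other way, at 35.3 UPM (64 UMIs, 27.2 to 45.0) in transgenic and 6.79 UPM (6 UMIs, 2.49 to 14.8) in WT. Dpp4-like cells had 0 transgenic UMIs, where the 3-UMI floor allows 0.640 UPM, and 8.22 UPM (56 UMIs) in WT. Read at that floor, the transgenic level was 12.8-fold lower, and the counting interval of the log2 ratio reached up to -3.34. In cells thinned to 5000 UMIs the log2 ratio at the floor was -0.63. The free RNA of droplets with at most 50 UMIs held Igfbp3 at 9.60 UPM in transgenic and 65.9 UPM in WT, so the WT levels in Fos-led, Adamts4-led, Piezo2-led and Dpp4-like cells lay below that of WT free RNA, and all but the F3-like and Piezo2-led transgenic levels lay below that of transgenic free RNA.

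Few progenitors carried the Igfbp3 counts. In transgenic progenitors 9 cells and in WT progenitors 12 cells held 50% of the Igfbp3 UMIs. The 5 highest transgenic cells had 27, 14, 12, 11 and 10 UMIs and lay in the F3-like, Adamts4-led, Icam1-like, Fos-led and Piezo2-led clusters, 1 in each. The 5 highest WT cells had 140, 111, 91, 84 and 77 UMIs, and 3 of them were F3-like, 1 Fos-led and 1 Icam1-like. Endothelial markers were low in these cells, and 1 of 10 had any UMI in either library. Their summed level was 10.6 UPM in the transgenic and 41.2 UPM in the WT cells. Endothelial cells had 11895 UPM in transgenic and 14820 UPM in WT. The other progenitors had 21.3 UPM in transgenic and 18.7 UPM in WT, so the 5 highest WT cells stood above the rest. The 8 progenitor markers were all found in the 5 highest cells, at 26652 UPM summed in transgenic and 33224 UPM in WT. Pericyte and smooth muscle markers stood at 42.4 UPM (2 of 10) in the transgenic and 272 UPM (3 of 10) in the WT cells, against 46.3 UPM in the other transgenic and 45.1 UPM in the other WT progenitors, and their part in the result was not tested. At the finer clustering without the members, a C7-, C4b- and Prlr-led cluster of 102 transgenic and 82 WT cells had the highest F3-like level, at 41.6 UPM in transgenic and 483 UPM in WT, while a Cilp-led cluster of 167 and 69 cells had 0 UPM in transgenic and 12.4 UPM in WT.

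**Figure D2:**
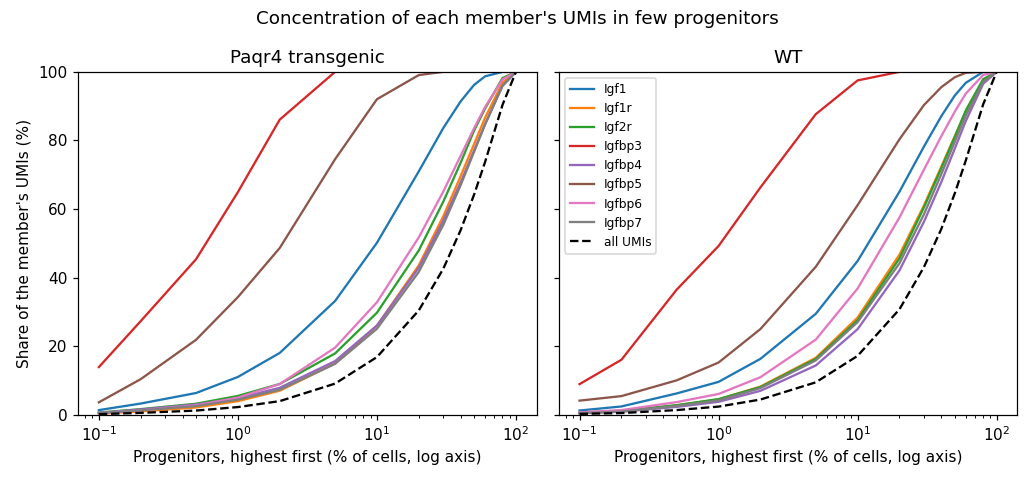
Cumulative share of each member's UMIs (%) against the share of progenitors ranked from the highest cell (%, log axis), Paqr4 transgenic left and WT right; the dashed line is all UMIs. The top 10% of cells held 92.0% of Igfbp5 UMIs in transgenic and 61.1% in WT progenitors, against 16.8% and 17.2% of all UMIs.

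Igfbp5, a binding protein that also attaches to extracellular matrix, marked Dpp4-like cells in both libraries and was spread wider in WT. In Dpp4-like cells it stood at 1114 UPM (1084 to 1145) in transgenic and 755 UPM (735 to 776) in WT, a log2 ratio of 0.56, and at 1113 and 785 UPM with the members left out of the clustering. In all progenitors outside that state it stood at 36.3 UPM (33.8 to 38.9) in transgenic and 207 UPM (200 to 213) in WT, a log2 ratio of -2.51 (-2.62 to -2.40) and 5.69-fold lower. There 149 of 8556 genes, 1.74%, were 1.5-fold or more lower, and 2.41% higher. Dpp4-like cells held 82.0% of the transgenic and 54.1% of the WT Igfbp5 UMIs.

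The deficit outside Dpp4-like cells ran through all 5 other progenitor clusters but was uneven. Icam1-like cells had 21.4 UPM in transgenic and 226 UPM in WT (log2 -3.40), and Fos-led cells 25.4 UPM in transgenic and 180 UPM in WT (log2 -2.83). Adamts4-led cells had 40.8 UPM in transgenic and 264 UPM in WT (log2 -2.69). The F3-like values of 63.8 UPM in transgenic and 142 UPM in WT, and the Piezo2-led values of 29.2 UPM in transgenic and 56.6 UPM in WT, lay closer together. The F3-like ratio was -1.15 and ran from -1.62 (a minimum of 2000 UMIs per cell) to -0.44 (variable genes scaled to unit variance). In thinned cells outside the Dpp4-like state 8.73% of transgenic (7.14 to 10.5) and 35.7% of WT cells (32.4 to 39.0) had an Igfbp5 UMI, against 14.8% of transgenic and 55.0% of WT cells before thinning. In Dpp4-like cells 65.2% of transgenic and 72.3% of WT cells did. Blood endothelial cells, which served as cells lacking the gene, had 1.59% in transgenic and 0% in WT, at median depths of 7584 and 9857 UMIs before thinning, against 19327 and 22599.5 UMIs in all progenitors.

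Free RNA held Igfbp5 at 161 UPM in transgenic and 176 UPM in WT droplets. The transgenic levels of all 5 clusters outside the Dpp4-like state lay below that of transgenic free RNA, as did the F3-like and Piezo2-led levels in WT below that of WT free RNA, and the part of free RNA in the result was not tested. The 5 highest cells were Dpp4-like in both libraries, with 219, 218, 188, 187 and 186 UMIs in transgenic and 374, 119, 111, 107 and 101 UMIs in WT. In progenitors 29 transgenic and 75 WT cells held 50% of the Igfbp5 UMIs. Within Dpp4-like cells the concentration was alike, since the top 10% of cells held 49.6% of UMIs in transgenic and 46.8% in WT. Lymphatic endothelial cells, 6 in each library, had 658 UPM (37 UMIs) in transgenic and 1932 UPM (123 UMIs) in WT, so Igfbp5 separated them from blood endothelial cells at 6.63 UPM in transgenic and 10.5 UPM in WT.

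**Figure D3:**
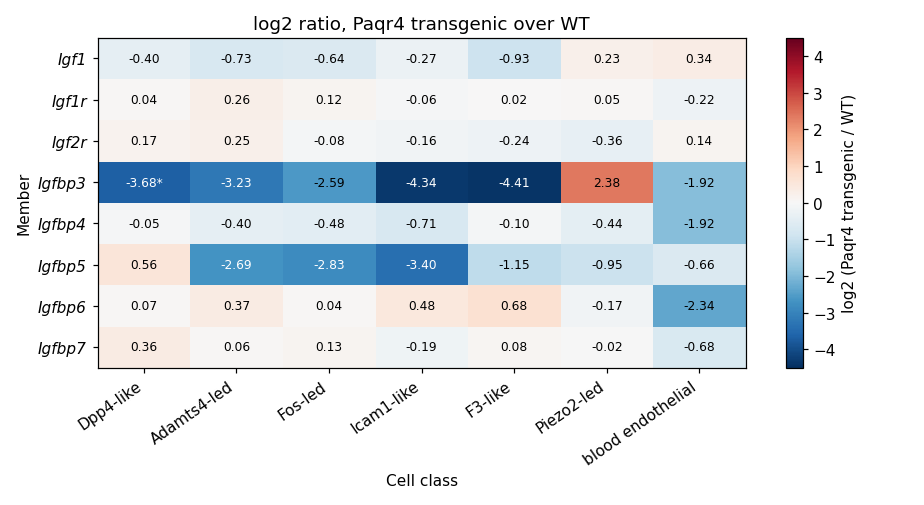
Log2 ratio of UPM, Paqr4 transgenic over WT, for the 8 members at the floor in 6 progenitor clusters and blood endothelial cells; blue is lower and red higher in transgenic. An asterisk marks a ratio against the 3-UMI floor, where a library had 0 UMIs; Igfbp3 and Igfbp5 carry the deepest values, from -4.41 upward.

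**Figure D4:**
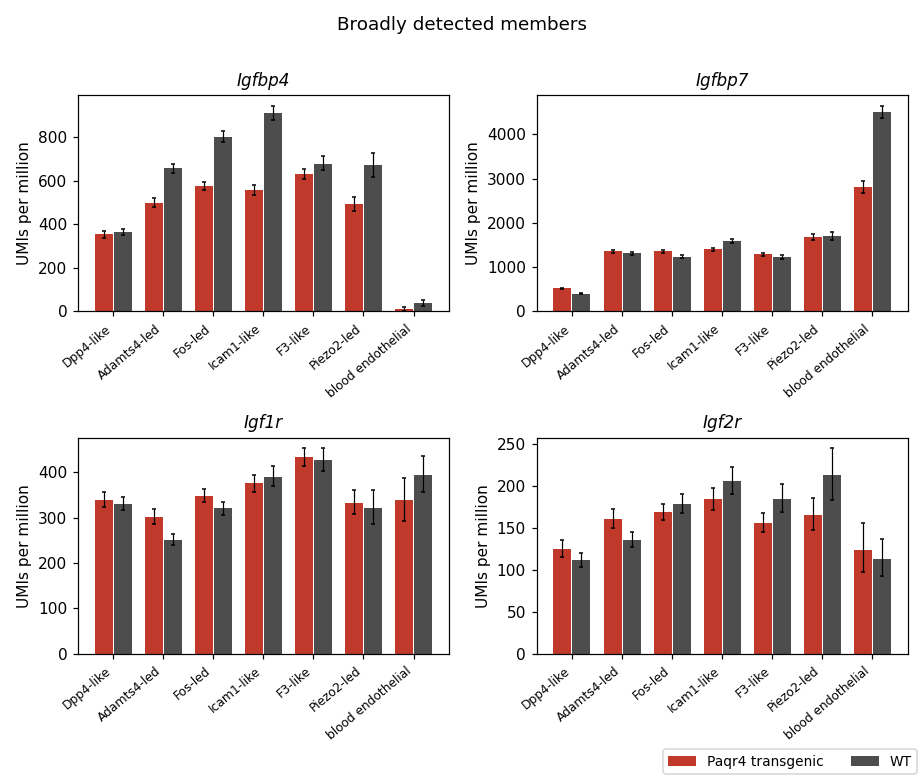
UMIs per 1000000 UMIs (UPM) for Igfbp4, Igfbp7, Igf1r and Igf2r in the same classes, Paqr4 transgenic (red, left) and WT (grey, right), with 95% Poisson intervals. Igfbp7 was highest in endothelial cells, at 2815 UPM in transgenic and 4508 UPM in WT, where Igfbp4 was near 0.

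Igfbp4, the substrate of the protease PAPP-A, was found in nearly every progenitor, with a UMI in 96.8% of transgenic and 97.3% of WT cells. After thinning these were 86.4% of transgenic and 85.6% of WT progenitors, against 4.76% of transgenic and 14.3% of WT endothelial cells. It stood at 523 UPM (514 to 532) in transgenic and 644 UPM (634 to 654) in WT progenitors. The gap was widest in Icam1-like cells, at 555 UPM in transgenic and 909 UPM in WT (log2 -0.71, -0.79 to -0.63), but -0.40 and under 1.5-fold at a coarser clustering (resolution 0.3). In Dpp4-like cells, the lowest progenitor cluster, it stood at 354 UPM in transgenic and 365 UPM in WT. Endothelial cells had 9.95 UPM in transgenic and 37.7 UPM in WT, 6 and 36 UMIs, both far below free RNA at 330 UPM in transgenic and 364 UPM in WT.

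Igfbp6, a binding protein that prefers IGF2, had its highest progenitor levels in Dpp4-like cells, at 1206 UPM in transgenic and 1151 UPM in WT, and in Piezo2-led cells, at 993 UPM in transgenic and 1117 UPM in WT. The lowest progenitor level lay in Icam1-like cells, at 340 UPM in transgenic and 244 UPM in WT. Mesothelial cells, 10 and 11 in number, stood above all progenitor clusters, at 1427 UPM (226 UMIs) in transgenic and 1897 UPM (441 UMIs) in WT. In F3-like cells Igfbp6 stood at 597 UPM in transgenic and 372 UPM in WT (log2 0.68), but with the libraries clustered separately the ratio turned to -0.67. Endothelial cells had 2 UMIs in transgenic and 16 UMIs in WT, of which 1 WT cell held 13, while free RNA stood at 471 UPM in transgenic and 415 UPM in WT. The Icam1-like levels of both libraries and the WT F3-like level lay below that of free RNA. So did the Adamts4-led levels, at 457 UPM in transgenic and 353 UPM in WT.

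Igfbp7, secreted by vessels and stroma, was highest in endothelial cells among the larger classes, at 2815 UPM (2683 to 2952) in transgenic and 4508 UPM (4374 to 4645) in WT, a log2 ratio of -0.68. In the Cd36-led endothelial cluster it stood at 2542 UPM in transgenic and 3563 UPM in WT, and in the Flt1-led cluster at 4193 UPM in transgenic and 5206 UPM in WT. Pericyte or smooth muscle cells, 6 and 12 in number, had 1765 UPM in transgenic and 2226 UPM in WT. Dpp4-like cells had the lowest progenitor level, at 520 UPM in transgenic and 405 UPM in WT, and the other progenitor clusters ran from 1294 to 1677 UPM in transgenic and from 1228 to 1705 UPM in WT. Lymphatic endothelial cells had 267 UPM (15 UMIs) in transgenic and 31.4 UPM (2 UMIs) in WT, the reverse of Igfbp5 among the endothelial classes. Free RNA held Igfbp7 at 612 UPM in transgenic and 511 UPM in WT, above the Dpp4-like and lymphatic levels of both libraries. Igfbp2 reached 12.6 UPM (2 UMIs) in transgenic and 55.9 UPM (13 UMIs) in WT mesothelial cells and 0 UMIs in endothelial cells.

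Within single clusters the background was larger than in all progenitors. Piezo2-led cells have no such count, since WT has fewer than 50 of them. In Fos-led cells Igf1, Igfbp3 and Igfbp5 of 8 members were lower (2.59% of genes lower, 3.91% higher), as they were in Adamts4-led cells (3.15% lower, 4.37% higher). In Icam1-like cells Igfbp3, Igfbp4 and Igfbp5 of 8 were lower (5.17% lower and 5.17% higher). In F3-like cells Igf1, Igfbp3 and Igfbp5 of 8 were lower and Igfbp6 higher (5.47% lower, 5.94% higher). In Dpp4-like cells 0 of 7 members were past 1.5-fold in either direction (3.33% lower, 5.66% higher), Igfbp3 having missed the floor. In endothelial cells Igfbp3, Igfbp4, Igfbp6 and Igfbp7 of 7 were lower, where 17.3% of genes were lower and 14.3% higher, and 2 of these 4 stood far below free RNA.

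Members met in the same cells to different degrees. Over thinned progenitors, Igfbp5 and Igfbp6 had a Pearson correlation of 0.33 in 1312 transgenic and 0.27 in 1101 WT cells, and within Dpp4-like cells 0.24 in transgenic and 0.18 in WT. Of transgenic progenitors with an Igfbp5 UMI 92.5% had Igfbp6, against 80.3% of those without, and in WT 80.3% against 70.8%. Igfbp5 and Igfbp7 stood at -0.21 in transgenic and -0.13 in WT. An Igfbp3 UMI was found in 4.32% of transgenic cells with Igf1 and 0.409% of those without, and in 10.1% of WT cells with Igf1 and 4.18% of those without. These values describe sparse counts from cells of the same library and are given with no test.

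Over 13 points, each a class with 50 or more cells in a library, 9522 genes were ranked by Pearson correlation of log2(UPM + 5) with each member. The points share libraries and the same few classes, so high values are common. Igfbp5 was most like Dpp4, the gene the state is named for (0.90), Rgs6 (0.90) and Tmem158 (0.88). Igfbp6 was most like Lsp1 (1.00), the microfibril gene Mfap5 (0.99) and Cers6 (0.99), and Igfbp4 like Chpf (0.99), the proteoglycan gene Dcn (0.99) and Pcsk5 (0.99). Igfbp3 was most like Agrn (0.92), Adcy6 (0.91) and Cenpj (0.91), Igfbp7 like Ptprk (0.96), Tmem204 (0.95) and Mif (0.93), and Igf1 like Mmp16 (0.98), Dpyd (0.98) and Rev3l (0.98). Igf1r was most like Ccdc61 (0.94), Stx18 (0.94) and Adcy9 (0.92), and Igf2r like Adcyap1r1 (0.95), Sec11a (0.94) and its overlapping Airn (0.93).

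Genes that act on the members were read from 6 lists, put together with results of these cells known, all in progenitors and at the same floor. Of 12 genes for proteases that cut binding proteins and for their inhibitors, 9 reached the floor and 0 were past 1.5-fold. Mmp2 had the largest ratio at -0.46 (237 UPM in transgenic, 326 UPM in WT), followed by Htra1 at -0.45 and Pappa, the gene of PAPP-A, at -0.43 (80.04 UPM in transgenic, 108 UPM in WT). Pappa, a leading gene of the Icam1-like cluster, stood there at 232 UPM in transgenic and 349 UPM in WT. Of 9 other IGF or binding protein partners 3 reached the floor, with ratios of 0.12 for Tmem219, a receptor for IGFBP3, 0.10 for Lrp1 and 0.04 for the insulin receptor gene Insr. Cd93, the gene of an endothelial receptor that binds IGFBP7, had 739 UPM in transgenic and 580 UPM in WT endothelial cells, and 0.114 UPM in transgenic and 0.234 UPM in WT progenitors. It was named after its values were seen.

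Of 11 receptor adaptors and negative regulators 10 reached the floor and 0 were past 1.5-fold. The lowest was Grb10, an imprinted inhibitor of the IGF1 and insulin receptors, at -0.57 (261 UPM in transgenic, 388 UPM in WT), followed by the cytokine signalling inhibitors Socs1 at -0.40 and Socs3 at -0.32. Of the 6 genes of the growth hormone axis, which drives Igf1 transcription, Cish was lower, at 9.003 UPM in transgenic and 19.6 UPM in WT (log2 -1.12, -1.35 to -0.90). Ghr, the receptor gene, stood at 352 UPM in transgenic and 355 UPM in WT, with Jak2 at -0.49 and Stat5a at -0.27. Igf2bp2 and Igf2bp3, which bind Igf2 mRNA, stood at -0.37 and 0.23.

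Of 12 imprinted growth genes 8 reached the floor, and 2 were past 1.5-fold, both lower in transgenic, where 1.51% of all 8542 genes were 1.5-fold or more lower and 2.53% higher. Zim1 stood at 9.57 UPM in transgenic and 30.1 UPM in WT (log2 -1.65, -1.87 to -1.45), and Peg3, its neighbour in an imprinted cluster, at 57.1 UPM in transgenic and 139 UPM in WT (log2 -1.28, -1.37 to -1.19). Mest stood at 0.40. H19, the neighbour of Igf2, missed the floor at 0.532 UPM (14 UMIs) in transgenic and 5.58 UPM (143 UMIs) in WT, and Dlk1, an inhibitor of fat cell formation, at 0.912 UPM in transgenic and 7.65 UPM in WT. H19 and Dlk1 were chosen after their values were seen, and few cells held their counts. The 5 highest progenitors held 85.7% of the H19 UMIs in transgenic and 54.5% in WT. For Dlk1 these shares were 100% in transgenic and 63.8% in WT. The median log2 ratio of the 8 at the floor was 0.03, beside 0.09 over all genes.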

How the data were processed

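The deposited matrices hold counts, whole-number UMIs that the authors did not normalize, and include empty droplets as well as cells. Build mm10 and Cell Ranger 7.0.0 are named by the submitters' processing notes, and Cell Ranger 4 stands in the matrix header. Which made the files, the strand setting and whether intronic reads were counted are not given in the sources used here. Intronic reads, if counted, would raise the levels of long genes such as Igf1r.

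A barcode was kept as a cell with at least 500 genes, at least 1000 UMIs and no more than 10% of UMIs from mitochondrial genes. Scrublet called 4 doublets in the transgenic and 1 in the WT library, which were removed; these are under 0.5% of cells, so doublets may remain. Counts scaled to 10000 per cell and log-transformed, 2000 variable genes, 30 components and 15 neighbours gave Leiden clusters at resolution 0.5 (seed 1). Libraries were not aligned to each other (Python 3.11.15, scanpy 1.11.5, leidenalg 0.10.2). A class needed 50% of its markers, at least 3, and a named progenitor state 50% of its markers 1.5-fold above other progenitors. These thresholds were set after the clusters were seen, so class names are rebuilt ones.

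A level is the sum of a gene's UMIs over the cells of a class per 1000000 UMIs of that class, with an exact Poisson 95% interval. Shares of cells have Clopper-Pearson intervals and ratios exact conditional binomial ones. A count of 0 is read against a floor of 3 UMIs per class and library. Free RNA is the sum over barcodes with at most 50 UMIs. Promoters are from RefSeq (GRCm38.p6) and gene positions from the GRCm38 annotation. The ratio and thinning steps were tested on simulated data. There is 1 library per genotype, so no test was run.

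The members, gene lists and marker lists were chosen with earlier results of these data known. The text names all 10 members, up to 3 genes per list with the largest absolute ratio at the floor, and the 3 genes most like each member, predicted genes left out. Alternatives changed the cell filters, doublets, clustering, weighting of cells and states, thinning, free RNA, the highest cells, centring and the floor.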

Additional observations from a re-analysis of the deposited data

Results flagged for a closer look

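Igfbp3, Igfbp5 and Igfbp6 were flagged for log2 ratios (transgenic over WT) of opposite sign in different classes, a trait they did not hold alone. Igf1 stood at 0.23 in Piezo2-led and -0.93 in F3-like cells, and Igfbp7 at 0.36 in Dpp4-like and -0.68 in blood endothelial cells. Igf2r stood at 0.25 in Adamts4-led and -0.36 in Piezo2-led cells. With 1 library per genotype these differences between classes were not tested. Igfbp3 stood at 2.38 in Piezo2-led cells, from 64 transgenic and 6 WT UMIs, and at -4.41 in F3-like cells, from 62 transgenic and 715 WT UMIs; in Piezo2-led cells the WT side rests on 42 cells. Igfbp5 stood at 0.56 in Dpp4-like cells and at -3.40 in Icam1-like cells, from 89 transgenic and 705 WT UMIs. Igfbp6 stood at 0.68 in F3-like cells, where the sign depends on the clustering, and at -2.34 in blood endothelial cells, where 2 transgenic and 16 WT UMIs lie below the level of free RNA.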

How the results depend on the processing

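Igfbp3 and Igfbp5 were the 2 members lower and 0 were higher in progenitors. The number lower was 1 with a floor of 50 UPM, 1 at a 2-fold threshold and 1 with equal weights for all 6 progenitor clusters. With no floor Igf2, at 7 UMIs in transgenic and 37 in WT, was also among those lower. The number higher was then 1, Igfbp2, on 2 UMIs in transgenic and 1 in WT. With equal weights for the 5 clusters of 50 or more cells in each library the number lower was also 2. These were Igfbp3 and Igf1 (-0.65). Of 136 log2 ratios recomputed in all progenitors 103 stayed within the counting interval and 33 moved, and of 477 within classes 356 stayed. These classes were the Dpp4-like, Icam1-like, F3-like and blood endothelial cells. Ratios in Fos-led, Adamts4-led and Piezo2-led cells were not in this count. The sign changed in 6 ratios in all progenitors and in 28 within classes. In 6 and 23 the ratio was under 1.5-fold to begin with, at most 0.08 in all progenitors and 0.34 within classes. The other 5, all from ratios past 1.5-fold, were Igfbp6 in F3-like cells at -0.67 (each library clustered on its own), Igfbp6 in endothelial cells at 0.11 (doublets kept) and Igfbp5 in endothelial cells at 0.18 (doublets kept), 0.0266 (every cell weighing the same) and 1.51 (free RNA subtracted at 5%). The cause was not tested. In all progenitors Igfbp3 ran from -4.15 (equal weights without the Piezo2-led cells) to -2.76 (every cell weighing the same), and Igfbp5 from -0.76 (without the 5 highest cells) to -0.31 (equal weights without the Piezo2-led cells). Scaled variable genes, resolution 0.8 without the members and equal weights for all 6 clusters were chosen after the data were seen. Depth limits Igf2 and Igfbp2 in every class, and all members in classes of few cells. No paired analysis was possible because each genotype has 1 library.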

Other observations

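The red-cell class had levels of several members within or near the range of the progenitor clusters. Igfbp5 stood there at 262 UPM in 31 transgenic cells and 248 UPM in 34 WT cells, Igfbp4 at 477 UPM in transgenic and 522 UPM in WT cells, and Igfbp6 at 597 UPM in transgenic and 399 UPM in WT cells. Free RNA stood at 161 UPM in transgenic and 176 UPM in WT for Igfbp5, and at 330 and 364 UPM for Igfbp4. For Igfbp6 it stood at 471 UPM in transgenic and 415 UPM in WT, the latter above the WT red-cell level. The part of free RNA or of remaining doublets in these red-cell levels was not tested. The Clps-led class, 5 transgenic and 25 WT cells, had 0 Igfbp4 and 0 Igf1r UMIs in either library.

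Stc1, the gene of an inhibitor of PAPP-A, was found mainly in endothelial cells, at 58.0 UPM in transgenic and 109 UPM in WT cells. WT F3-like cells had it at 24.1 UPM, against 0.437 UPM in transgenic F3-like cells. Esm1, an endothelial proteoglycan gene, stood at 99.5 UPM in transgenic and 231 UPM in WT endothelial cells. Both genes were chosen after their values were seen.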
